A study of Mus musculus with 6 samples.

Results

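Transcripts of 10 genes of the circadian clock were described in whole mouse lung: the activator Arntl (also Bmal1), the repressors Per1, Per2, Per3 and Cry2, the nuclear receptors Nr1d1 and Nr1d2 (Rev-erb alpha and beta), and the output factors Dbp, Tef and Hlf. They are 10 of the 12393 genes that the array measured. The genes were chosen by their place in the clock, with earlier results from these same arrays known, the spread between lungs and the differences between bleomycin and saline included. The levels and differences of the 10 genes are therefore given as a description. Where the number of them past a threshold of the array-wide fit is given, it stands beside the share of all genes as a description too, and is no test of these genes.

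The circadian clock is a loop of transcription and translation that runs in nearly every cell. Arntl protein pairs with Clock protein, binds E-box sequences and switches on the Per, Cry and Nr1d genes and the output factors; Per and Cry proteins then block that pair, and the Nr1d proteins repress Arntl. In tissues, lung among them, Arntl messenger RNA therefore peaks roughly when Dbp and Nr1d1 messenger RNA is lowest, and Dbp, Tef and Hlf, which bind D-box sequences, pass the rhythm on to other genes.

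The series compared fibrotic lungs, produced with the DNA-damaging drug bleomycin, with lungs given saline. Wildtype C57BL/6J mice labelled male, 8 to 10 weeks old, received saline (mice A, B and C) or bleomycin at 1 mg/kg in 50 µl of saline (mice D, E and F). All lungs were taken 14 days later with the trachea and large airways cut away, and RNA of each homogenised lung was measured on 1 Affymetrix MOE430A array. The protocol gives oropharyngeal delivery and the sample labels the intratracheal route. The hour at which each lung was taken is not given in the sources used here.

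Levels are on the log2 scale, where 1 unit is a doubling, with a value for each probe set (a group of probes to one transcript), and each gene was read by its brightest probe set. Array medians lay between 7.37 and 7.41, and for arrays the number of animals limits the precision. Saline B went against its male label: the inactive X chromosome transcript Xist stood at 11.40 there and at 7.23 to 7.88 on the other 5 arrays, and the Y-linked gene Eif2s3y stood at 4.05 against 7.23 to 8.02. Differences are therefore given with and without saline B. Lung epithelial markers were bright on every array, the summed linear level of 7 surfactant and type 2 cell genes running from 62876 to 64580 after saline and from 47634 to 61620 after bleomycin.

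The clock acts on its own genes through short promoter sequences, and the stretches that carry them are shown because they are the means by which the activator, the repressors and the output factors are known to act on one another. RefSeq promoter windows of the GRCm38.p6 build, from 250 bases before to 50 bases after the transcription start, were at hand for 9 of the 10 genes, in 12 windows. Per2 had no entry. Each window was searched on both strands for CACGTG (E-box), CACGTT (an E-box variant), TTANGTAA (D-box) and TGACGTCA (the cAMP response element). It was also searched for AGGTCA, which is only part of the element shared by Nr1d and ROR receptors and is called receptor site below. Capitals mark a match, and each sequence reads 5′ to 3′ on the gene's own strand.
Per1, chr11:69098750-69098849, plus strand, E-box and receptor site: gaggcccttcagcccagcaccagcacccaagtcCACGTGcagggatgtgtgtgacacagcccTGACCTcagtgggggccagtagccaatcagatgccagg
Tef, chr15:81802499-81802598, plus strand, E-box: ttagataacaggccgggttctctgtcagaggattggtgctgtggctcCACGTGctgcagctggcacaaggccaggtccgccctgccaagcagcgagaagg
Nr1d1, chr11:98775378-98775477, minus strand, E-box variant: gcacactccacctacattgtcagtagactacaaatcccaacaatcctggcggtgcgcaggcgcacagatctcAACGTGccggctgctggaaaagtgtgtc
Per3, chr4:151044794-151044893, minus strand, D-boxes: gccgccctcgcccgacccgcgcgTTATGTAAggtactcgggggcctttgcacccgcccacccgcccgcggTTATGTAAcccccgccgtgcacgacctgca
Nr1d2, chr14:18239131-18239230, minus strand, receptor site: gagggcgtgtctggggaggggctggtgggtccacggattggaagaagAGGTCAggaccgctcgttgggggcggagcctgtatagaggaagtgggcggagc
Arntl, chr7:113207533-113207556, plus strand, receptor site: gcagaaagtAGGTCAgggacggag

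Positions are counted from the transcription start and give the first base of a match. The E-box of Per1 was at -166 and that of Tef at -127, and a second Tef window held another at -138. Among all 32851 promoter windows in the table, 7.15% held CACGTG and 4.68% held CACGTT. The Nr1d1 match to the variant, read as AACGTG, was at -28, and Cry2 had one at -166. Per3 held 2 D-boxes, at -205 and -158, where 2.32% of all windows held any. AGGTCA was found in 16.3% of all windows, among them those of Nr1d2 at -77, Arntl at 32 and Per1, where it lay on the reverse strand at -137. Hlf held the cAMP response element at -9, against 1.79% of all windows. None of the 5 motifs was in the Dbp window, which says only that these letters are absent from those 300 bases.

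Arntl, the activator of the loop, stood at 5.81, 6.09 and 8.27 on saline A, B and C and at 6.95, 7.32 and 8.05 on bleomycin D, E and F. It was highest on C in the saline group and on F in the bleomycin group, and all 3 bleomycin lungs lay inside the saline range. The saline mean was 6.72 ± 1.35 and the bleomycin mean 7.44 ± 0.56 (SD, n = 3 each), a difference of 0.72 ± 0.59 (standard error). Between saline A and C the level differed 5.52-fold. Its only probe set was dim on A and B, below the medians of those arrays, 7.37 and 7.41. Without detection calls, how far background enters that fold is not known.

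Dbp, the output factor known for one of the strongest rhythms among transcripts, ran the other way. It stood at 11.75 and 11.48 on saline A and B but 6.55 on saline C, and at 8.81, 9.77 and 6.53 on bleomycin D, E and F. C and F, the lungs with the most Arntl in their groups, had nearly the same low Dbp level, 36.7-fold below saline A in the case of C. The means were 9.93 ± 2.92 after saline and 8.37 ± 1.66 after bleomycin (SD, n = 3 each), a difference of -1.56 ± 1.34. A second Dbp probe set placed the lungs in the same order, at 10.27, 9.64 and 6.43 after saline and 7.61, 7.75 and 6.03 after bleomycin.

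Tef and Hlf, the close relatives of Dbp in the PAR family of basic leucine zipper factors, followed the saline order of Dbp over a smaller range. Tef stood at 11.69, 11.05 and 10.09 on A, B and C and at 10.13, 10.04 and 9.56 on D, E and F. Hlf stood at 9.67, 9.11 and 7.88 after saline and at 7.34, 7.90 and 7.60 after bleomycin. In both genes saline C was the lowest of its group, yet it overlapped the bleomycin lungs: bleomycin D lay just above it for Tef and bleomycin E for Hlf. The bleomycin lungs spanned 0.57 units for Tef and 0.56 for Hlf, against 1.60 and 1.79 among saline lungs. The differences were -1.04 ± 0.35 for Tef and -1.27 ± 0.39 for Hlf. Of their other probe sets, those of Tef gave -0.69 ± 0.25 and -1.44 ± 0.48 and that of Hlf -1.47 ± 0.51.

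Nr1d1 and Nr1d2, the receptors that repress Arntl, kept a wide spread in both groups. Nr1d1 stood at 9.94, 9.22 and 7.66 on A, B and C and at 8.00, 8.49 and 6.60 on D, E and F. Nr1d2 stood at 11.19, 11.07 and 9.08 after saline and at 9.57, 9.84 and 7.51 after bleomycin. For both receptors saline C and bleomycin F were the lowest lungs of their groups, and C lay below bleomycin D and E. Nr1d2 was the exception among the 10 genes in that its bleomycin range, 2.33, exceeded its saline range, 2.11. The differences were -1.24 ± 0.61 for Nr1d1 and -1.48 ± 0.70 for Nr1d2, whose second, dimmer probe set gave -0.57 ± 0.28.

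Among the Period genes, whose proteins inhibit the Arntl and Clock pair, Per1 repeated that order. It stood at 10.34, 10.13 and 8.62 on A, B and C and at 8.76, 9.05 and 8.03 on D, E and F, a difference of -1.09 ± 0.44. Per2 stood at 7.42, 7.18 and 6.69 after saline and at 6.91, 6.32 and 6.81 after bleomycin, so that F was not its lowest bleomycin lung. Its difference was -0.42 ± 0.22, the smallest in size of the 10. The second Per2 probe set differed more, at 8.13, 6.76 and 5.50 after saline and 5.71, 5.80 and 5.67 after bleomycin, or -1.07 ± 0.53. That probe set spread over 2.64 units among saline lungs and 0.13 among bleomycin lungs, so the readings of Per2 depend on the probe set.

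Per3, a Period gene that is not essential for the rhythm, stood at 9.72, 8.81 and 7.74 on A, B and C and at 6.95, 7.55 and 6.81 on D, E and F. Every bleomycin lung lay below every saline lung, and the difference of -1.65 ± 0.43 was the largest in size among the 10 genes. The other Per3 probe sets, which were dim at 5.55 to 6.31, gave -0.29 ± 0.13 and -0.37 ± 0.11, and the mean of all its probe sets gave -0.77. Cry2, a partner of the Period proteins, stood at 8.88, 8.23 and 7.70 after saline and at 7.29, 7.69 and 7.59 after bleomycin, a difference of -0.75 ± 0.27. Its groups were also separate, but by 0.01 units: saline C at 7.70 lay just above bleomycin E at 7.69.

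**Figure D1:**
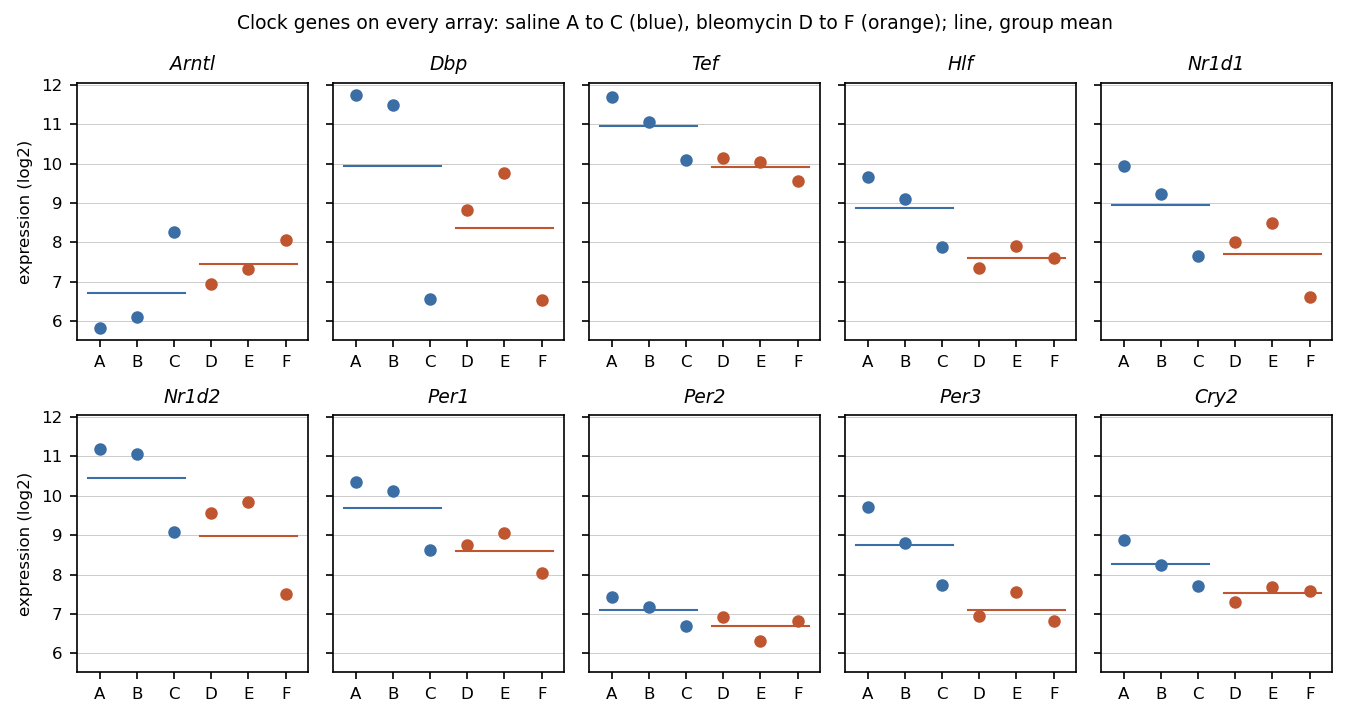
Log2 expression (vertical axis) of each of the 10 clock genes on each array, with saline A, B and C and bleomycin D, E and F as points and the group mean as a bar. Arntl is highest on C (8.27) and F (8.05), while Dbp is lowest there (6.55 and 6.53), and C is the lowest saline lung for each of the 9 genes other than Arntl.

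Set side by side within each group, the 9 genes other than Arntl were lowest on saline C in 9 of 9 cases and highest on saline A in 9 of 9. Of all 12393 genes, 28.3% were lowest on C among saline lungs and 32.6% highest on A. Over the 17 probe sets of those 9 genes, C was lowest in 17 and A highest in 16, Per3 supplying the exception. In the bleomycin group F was the lowest lung for 6 of the 9 genes (Dbp, Tef, Nr1d1, Nr1d2, Per1 and Per3) and E the highest for 7, against 31.7% and 31.5% of all genes. The combination of C lowest and F lowest was met by 6 of the 9 genes and by 10.5% of all genes. Arntl was highest on C and F, where most of the others were lowest, and lowest on A, where they were highest. In the bleomycin group its lowest lung was D (6.95, against 7.32 on E), so that end of the order was not reversed. On the whole array, 10.1% of genes were highest on both C and F. Genes of one array share its RNA and its normalization, so these counts describe 6 lungs and are not separate observations.

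Most of the clock genes spread widely between lungs of one group. Dbp had the widest saline range of all 12393 genes, 5.20 units, and the fourth-widest bleomycin range, 3.24, a 9.44-fold span. Of the 20 genes with the widest saline range 8 were clock genes: Dbp, Arntl (rank 6), Nr1d1 (rank 8), Nr1d2 (rank 9), Per3 (rank 11), Hlf (rank 14), Per1 (rank 17) and Tef (rank 18). Cry2 ranked 67 and Per2 563. In the bleomycin group 3 of the widest 20 were clock genes, namely Dbp, Nr1d2 (rank 11) and Nr1d1 (rank 16), whereas Hlf ranked 1340 and Cry2 3194. The median gene spanned 0.30 units among saline lungs and 0.26 among bleomycin lungs. A saline range of at least 1 unit was met by 8 of the 9 genes other than Arntl and by 1.15% of all genes, and a bleomycin range of that size by 4 of 9 and 1.66%. The saline range exceeded the bleomycin range in 8 of these 9 genes and in 56.1% of all genes, and Arntl also spanned more after saline (2.46 against 1.10). RNA integrity was read as the signal of 3-prime over 5-prime control probes in log2 units. For Actb it was 1.58, 1.14 and 1.71 on A, B and C and 1.23, 1.27 and 1.04 on D, E and F. For Gapdh it was 1.46, 0.88 and 1.39 after saline and 0.81, 0.98 and 1.10 after bleomycin. The part of RNA integrity in the order of the lungs was not tested.

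**Figure D2:**
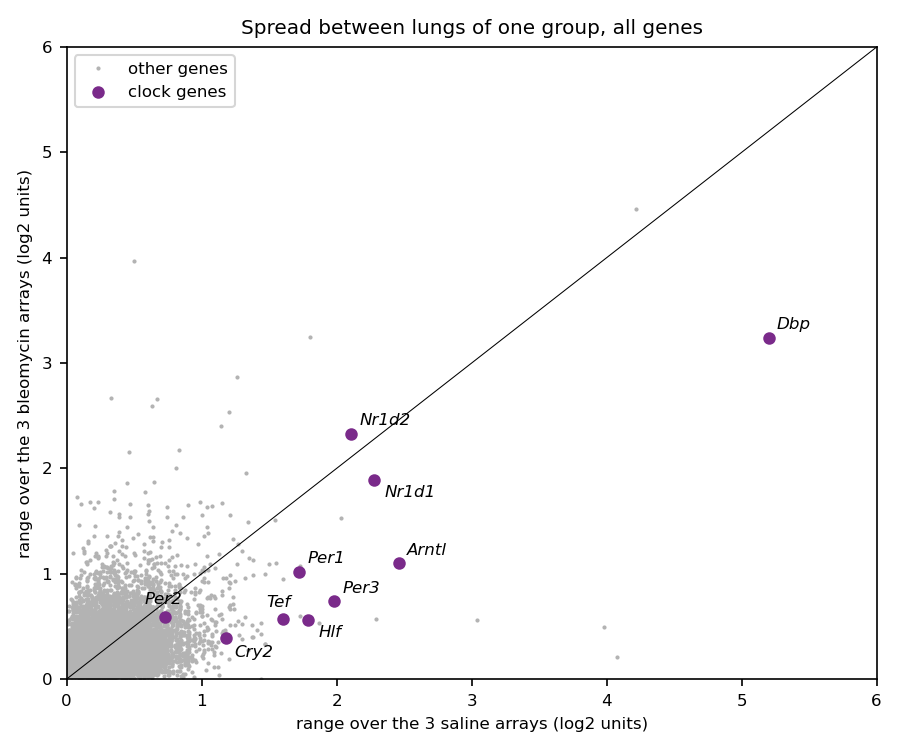
Range over the 3 saline arrays (horizontal axis, log2 units) against the range over the 3 bleomycin arrays (vertical axis, log2 units) for each gene, with the 10 clock genes in purple and the line of equal ranges. Dbp lies at 5.20 and 3.24, and Per2, at 0.73 and 0.59, is the clock gene nearest the bulk of the array.

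The question of the series, bleomycin against saline, met this spread directly. In mean level 9 of the 10 clock genes were lower after bleomycin and Arntl was higher, with a median difference of -1.17 against -0.04 over all genes. None of the 10 passed limma's test at an adjusted p under 0.05, where 5.60% of all genes did (3.70% higher and 1.90% lower). At an unadjusted p under 0.05 the count was 5 of 10, where 22.7% of all genes met it. The groups did not overlap for 2 of the 10, Per3 and Cry2, compared with 27.9% of all genes. Since the contrast was known when the genes were chosen, nothing is read from these counts.

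The size of the differences varied with the lungs that were counted. Without saline C all 10 differences grew: Dbp went from -1.56 to -3.25, Arntl from 0.72 to 1.49, Nr1d2 from -1.48 to -2.16, Nr1d1 from -1.24 to -1.88, Per1 from -1.09 to -1.63, Hlf from -1.27 to -1.78, Tef from -1.04 to -1.46, Per3 from -1.65 to -2.16, Cry2 from -0.75 to -1.03 and Per2 from -0.42 to -0.62. Of the 10, 5 (Tef, Hlf, Per1 and Per3 lower, Arntl higher) were then past limma's threshold, as were 2.90% of all genes. Arntl was only at its edge, with a limma adjusted p that rounds to 0.05, where the lower genes ran from 0.0108 (Hlf) to 0.0315 (Per1). Nothing is read from that count either, since the genes and the place of C in their order were known beforehand. Without saline A all 10 shrank: Dbp to -0.65, Arntl to 0.26, Nr1d1 to -0.74, Nr1d2 to -1.10, Per1 to -0.76, Per2 to -0.25, Per3 to -1.17, Cry2 to -0.44, Tef to -0.66 and Hlf to -0.88. Without bleomycin F, Dbp stood at -0.64, Nr1d2 at -0.75, Nr1d1 at -0.70 and Arntl at 0.41, and without bleomycin E, Per2 stood at -0.24. The other differences without E or F, and all 10 without D, moved by less than 1.5 times. The signs of all 10 were kept in each of the 6 omissions.

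Without saline B, the array that went against its sex label, the 10 genes kept their signs as well. Dbp then differed by -0.79 and Arntl by 0.40, each reduced by more than 1.5 times. The other 8 moved less, with Nr1d2 at -1.17, Nr1d1 at -1.10, Hlf at -1.16, Tef at -0.98, Per1 at -0.87, Per2 at -0.37, Per3 at -1.62 and Cry2 at -0.77. Saline B lay between A and C for all 10 genes, and nearer to A for each except Cry2.

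**Figure D3:**
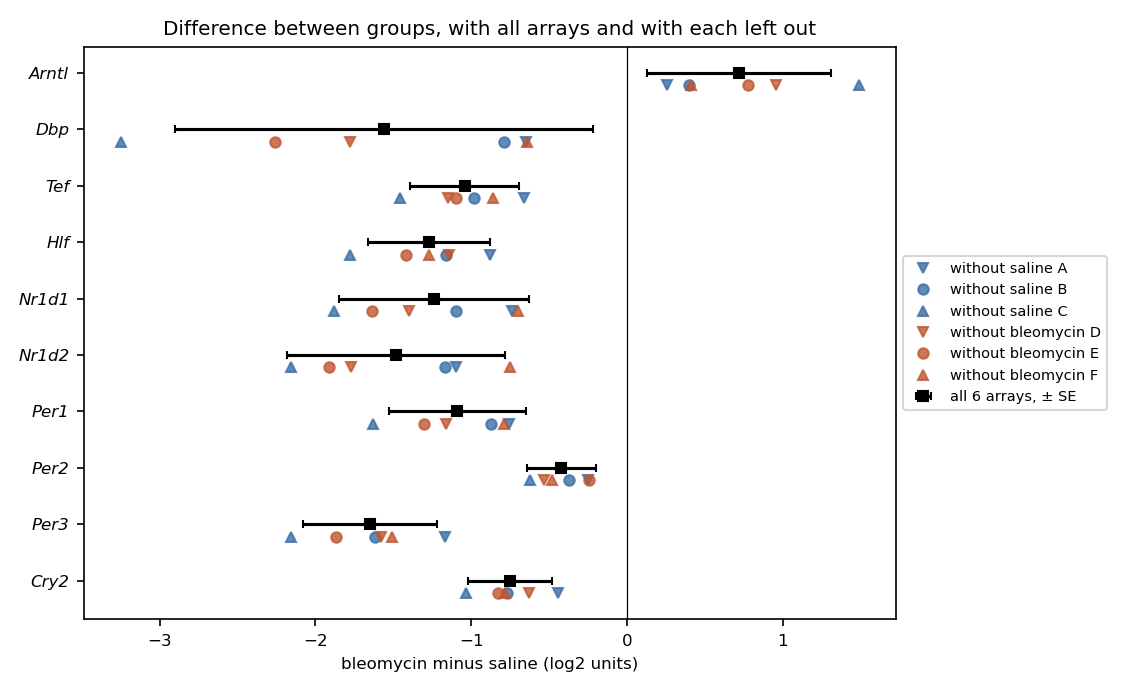
Bleomycin minus saline (log2 units) for each of the 10 clock genes, with all 6 arrays and with each array left out in turn. The values without saline C lie farthest from 0 for each gene, from -3.25 for Dbp to 1.49 for Arntl.

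Markers of several cell types moved with the treatment, and their part in the clock gene differences was not tested. Of 11 measured markers of recruited macrophages 10 rose after bleomycin, and their summed linear level went from 1613 to 2357 in saline lungs to 13973 to 15488 in bleomycin lungs. Of 8 endothelial markers 3 fell, with sums of 15821 to 19119 and 11846 to 13333. Of 7 airway epithelial markers 2 fell, and of 6 type 1 cell markers 1 fell. In fibroblast markers 3 of 8 rose and 2 fell. At limma's adjusted p under 0.05, 3.70% of all genes rose and 1.90% fell. In homogenised lung, fewer cells of a type and less RNA per cell cannot be told apart. The macrophage sums of saline A, B and C were 1613, 2055 and 2357, highest on C. Those of bleomycin D, E and F were 15488, 13973 and 14185, highest on D and not on F.

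The rest of the core loop was read from 10 measured genes of a list of 12. Of these 1 fell and 9 did not pass, where 5.60% of all genes passed, with a median difference of -0.07. Clock, the partner of Arntl, stood at 7.71, 7.83 and 8.33 on A, B and C and at 7.75, 7.95 and 8.17 on D, E and F, a difference of 0.00 ± 0.18 (limma adjusted p = 0.997). Like Arntl it was highest on C and F, which held for 2 of these 10 genes and for 10.1% of all genes. Nfil3, a repressor that binds the same D-boxes as Dbp, shared that order, at 5.77, 6.19 and 6.71 after saline and 6.56, 6.66 and 7.32 after bleomycin (0.63 ± 0.27, limma adjusted p = 0.218). Bhlhe40, a repressor at E-boxes, stood at 10.00, 9.43 and 8.79 on A, B and C, lowest on C as Dbp was, and at 10.49, 10.14 and 9.98 after bleomycin (0.80 ± 0.28, limma adjusted p = 0.146).

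Rora, the receptor that activates Arntl through the element where Nr1d proteins repress it, fell by 0.66 ± 0.15 (limma adjusted p = 0.0478). It stood at 9.29, 9.08 and 8.70 after saline and at 8.38, 8.32 and 8.40 after bleomycin, with no overlap. The call was not firm: the adjusted p ranged from 0.0229 to 0.146 over 13 alternatives and passed in 6. It was lost without A (0.107), B (0.111), D (0.105), E (0.103) or F (0.125), and kept without C. The others of the list did not pass. Npas2, a paralog of Clock, differed by -0.15 ± 0.13, and Arntl2, a paralog of Arntl, by -0.09 ± 0.14. For Cry1, the fellow repressor of Cry2, the difference was -0.30 ± 0.21. Rorb differed by -0.26 ± 0.14, Bhlhe41 by -0.05 ± 0.10 and Timeless by 0.12 ± 0.12. Rorb and Bhlhe41 were dim, at 5.52 to 6.10 and 5.77 to 5.94. Cry1 was lowest on C among saline lungs (6.14) but highest on F among bleomycin lungs (6.51).

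Of 18 measured kinases, phosphatases, ubiquitin ligases and cofactors that act on clock proteins, 1 fell and 17 did not pass, with a median of -0.04. Among all genes 5.60% passed, so 1 of 18 was near that share. Sirt1, a deacetylase reported to act on Arntl and Per2 proteins, fell by 0.88 ± 0.15 (limma adjusted p = 0.0156). It stood at 7.95, 7.80 and 7.69 on A, B and C and at 6.68, 7.18 and 6.95 on D, E and F, so that saline C lay with its own group. The adjusted p ranged from 0.00932 to 0.0694 over 13 alternatives, and the call was lost without A (0.0694) or F (0.0593).

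Genes whose transcripts cycle in many tissues were read from 16 of 18 listed. Of these 2 rose, 3 fell and 11 did not pass, where 5.60% of all genes passed, with a median of -0.22. Among saline lungs 12 of the 16 were lowest on C, compared with 28.3% of all genes. Cdkn1a, a cell cycle inhibitor that is also a p53 target, rose by 1.95 ± 0.16, or 3.87-fold (limma adjusted p = 0.000842), from 9.40, 9.56 and 10.02 to 11.57, 11.67 and 11.61. Klf15, a glucocorticoid-induced factor, fell by 1.50 ± 0.23 (limma adjusted p = 0.0112), from 9.41, 9.17 and 8.47 to 7.44, 7.74 and 7.37, and missed the threshold without A (0.0545). Klf9, another glucocorticoid-induced factor, fell by 0.93 ± 0.19 (limma adjusted p = 0.0309), from 12.26, 11.90 and 11.75 to 10.77, 11.38 and 10.97. In all 3 of these genes saline C was nearest to the bleomycin lungs but did not reach them.

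The remaining calls of that list were less firm. Klf9 missed the threshold without A (0.0954), B (0.0648), D (0.0775) or F (0.1), within a range of 0.0178 to 0.1 over 13 alternatives. Cys1, a cilium protein, fell by 1.38 ± 0.26 (limma adjusted p = 0.026), from 8.54, 7.88 and 7.44 to 6.36, 6.46 and 6.89. It was lost without A (0.0634), B (0.0596), D (0.0715) or E (0.058), and its second probe set gave 0.06, with the opposite sign. Sgk1, a kinase named after its value was seen, rose by 0.45 ± 0.10 (limma adjusted p = 0.0435) and passed in 3 of 13 alternatives. Its adjusted p without A, B, C, D, E or F was 0.0988, 0.0915, 0.103, 0.0866, 0.115 or 0.123. Without saline C the genes of the list that passed as lower were 6 (Usp2, Tsc22d3, Klf9, Klf15, Herpud1 and Cys1), Usp2 being a deubiquitinase under clock control that stood at 9.25, 8.82 and 8.23 after saline and at 8.12, 8.32 and 8.20 after bleomycin.

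Immediate early genes respond to handling and stress within minutes and include factors that can reset the clock. All 15 listed were measured: 2 rose, 1 fell and 12 did not pass, where 5.60% of all genes passed, with a median of -0.16. Egr2 rose by 1.52 ± 0.20 (limma adjusted p = 0.00586), from 6.40, 6.49 and 6.28 to 8.38, 7.82 and 7.55, with saline C beside A and B. Atf3 rose by 0.92 ± 0.15 (limma adjusted p = 0.013), and was lost without A (0.0536) or F (0.0522). Nr4a1 fell by 0.89 ± 0.18 (limma adjusted p = 0.0333), and was lost without A (0.0929), B (0.0789), D (0.0854) or F (0.112). Over the list, 9 of 15 genes were lowest on C among saline lungs, compared with 28.3% of all genes. The same held for 9 of the 18 kinases, phosphatases, ligases and cofactors and for 5 of the 10 other core clock genes.

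**Figure D4:**
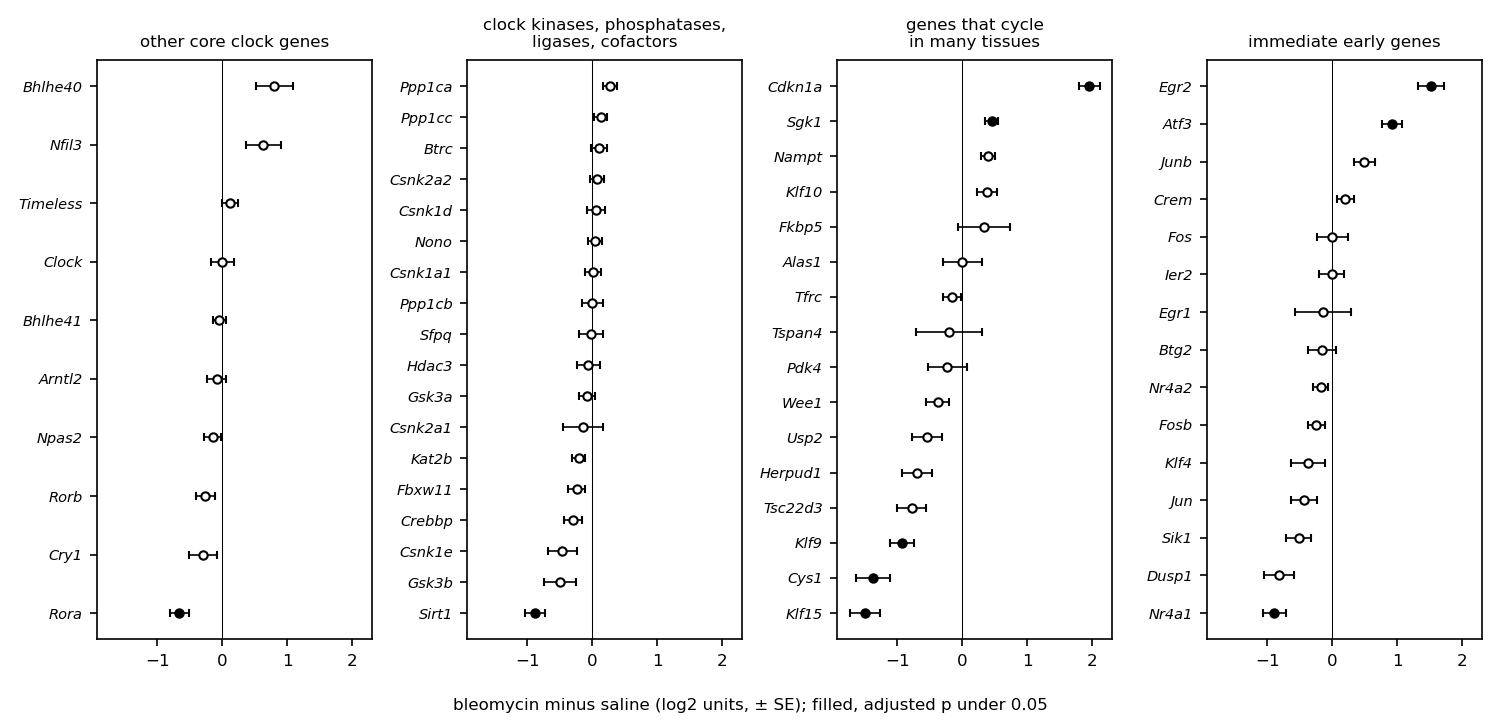
Bleomycin minus saline (log2 units) for every measured gene of the 4 related lists, with genes past limma's adjusted p of 0.05 marked. The lists have 1, 1, 5 and 3 genes past it, with Cdkn1a at 1.95 and Klf15 at -1.50. Of all genes 5.60% are past it. The 10 clock genes are not drawn here.

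The profiles over the 6 arrays most like those of Dbp and Arntl were found by the root mean square difference after each gene was centred on its own mean. The 5 genes nearest Dbp were all members of the clock set: Nr1d2 at 1.04 units, Nr1d1 at 1.14, Per1 at 1.34, Per3 at 1.43 and Hlf at 1.51, against a median of 2.10 over all genes. The values were not scaled, so a gene near Dbp, whose saline range was the widest of all, had to spread widely too. The members were chosen with their spread known, so nothing is read from their place here. The 5 nearest Arntl were Spon2 (0.41), the chemokine receptor Ccr2 (0.51), the chemokine Cxcl9 (0.51), Nupr1 (0.52) and Sdf2l1 (0.53), against a median of 0.93. Spon2, a secreted matrix protein, stood at 6.52, 6.68 and 7.77 after saline and 7.30, 7.23 and 8.16 after bleomycin, highest on C and F as Arntl was. None of the 5 belongs to the clock lists used here, and Ccr2 is in the macrophage marker list. Genes that ran opposite to Arntl, as most members did, could not lie near it by this measure. Clock and Nfil3 shared its order of C and F highest, but over saline ranges of 0.62 and 0.94 against 2.46. Nothing is therefore read from the absence of clock genes.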

How the data were processed

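Total RNA from the lungs of 6 mice (3 saline, 3 bleomycin) was measured on 1 array each. The deposited values are log2 values per probe set, which the authors made by RMA (the tool named in the submitters' processing notes) with normalization by quantiles, as the design text says. The log base was read from the values, whose largest is 14.42, under the limit of 16 on the log2 scale that a 16-bit scanner sets. Software version: not given in the sources used here. Detection calls were not used, so a dim probe set could not be called undetected.

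Of 22690 probe sets, 64 controls were left out and 22626 tested. Names came from GEO's platform annotation: 20380 probe sets had 1 symbol, 691 several and 1555 none, and 20351 matched the RefSeq table of GRCm38.p6 by Entrez ID. Each of 12393 genes was read by its brightest probe set (by mean over the 6 arrays). Groups came from the sample titles. Bleomycin was compared with saline with limma 3.58.1 in R 4.3.3 (lmFit and eBayes, no covariates), with Benjamini-Hochberg adjustment over all tested probe sets and a threshold of 0.05. Differences are bleomycin minus saline on the log2 scale, with the moderated standard error. Adjusted p-values are limma's.

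The members, lists and alternatives were chosen with earlier results of these data known. The text names all 10 members, every measured gene of the core clock list, up to 4 called genes with the largest difference from each other list, and the 5 profiles most like Dbp and Arntl. Outside that rule, Sgk1, Usp2, Tsc22d3, Herpud1, Tspan4 and the neutrophil and myeloid genes of the closing observations were named after their values were seen.

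On simulated data for the comparison of bleomycin with saline over 22626 probe sets, the fit recovered 82 of 100 changes of 1 log2 unit and 100 of 100 of 2, with 5 false calls among 187. The simulated spread was that typical of the whole array, where the median within-group SD was 0.16. Among the clock genes that SD ran from 0.35 for Per2 to 2.38 for Dbp, so the recovery does not apply to them. RNA integrity was tested with exact two-sided permutations of the 6 arrays. Alternatives were a filter on the dimmest 25% of probe sets, array weights, a robust variance prior with a trend, another round of quantile normalization, other probe sets of a gene, centring on 45 ribosomal protein genes, a threshold of 0.01 and leaving out each array. Python 3.11.15 with matplotlib 3.10.9 drew the figures.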

Additional observations from a re-analysis of the deposited data

How the results depend on the processing

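No paired analysis was possible because no letter from A to F is shared between arrays. Of 130 recomputed differences of the 10 clock genes 127 moved by less than 1 within-group SD and 0 changed sign. Those that moved further were Per2 by its second brightest probe set (-1.07) and Per3 by its second (-0.29) or by the mean of its probe sets (-0.77). The count is no measure of stability. The dim filter and the robust prior left each difference as it was, and 4 genes had only 1 probe set. The SD is also the spread between lungs itself: for Dbp it was 2.38, so values from -0.64 to -3.25 counted as unmoved. The clock genes past the threshold stayed at 0 higher (0 to 1 with an array left out) and 0 lower (0 to 4), with 1 lower, Per3, when the dimmest probe sets were left out or when arrays were centred on ribosomal protein genes. Over all genes, 458 higher became 163 to 385 with an array left out and 143 at a threshold of 0.01, and 236 lower became 22 to 165 and 20.

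Of the related lists, the 1 core clock gene that fell became 0 to 1 with an array left out and 0 by the mean of probe sets, by the second probe set and at 0.01. The 1 kinase or cofactor gene that fell became 0 to 1 with an array left out and 0 at 0.01. In the cycling genes, 2 higher became 1 when the dimmest probe sets were left out, with the robust prior, after ribosomal centring, after repeated normalization, with any array left out (1 to 1) and at 0.01, and 3 lower became 0 to 6 with an array left out and 0 at 0.01. In the immediate early genes, 2 higher became 1 to 2 with an array left out and 1 at 0.01, and 1 lower became 2 with array weights, 0 to 1 with an array left out and 0 at 0.01. Cys1 turned to 0.06 by its second probe set. With fewer arrays the test has less to estimate the spread from; other causes were not tested. With 3 arrays a group, a difference of 1 log2 unit in Dbp lies within its standard error of 1.34.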

Other observations

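Some genes outside the clock lists also ordered the lungs with C and F at one end. They were chosen after their values were seen and are given as values. The neutrophil genes S100a8 and S100a9 were highest on F in the bleomycin group and on C in the saline group. S100a8 stood at 9.41, 10.46 and 10.55 on A, B and C and at 8.86, 9.64 and 11.26 on D, E and F. S100a9 stood at 9.92, 11.08 and 11.12 after saline and at 9.18, 10.17 and 11.72 after bleomycin. For both, saline B lay nearer to C than to A. Whether their order and that of the clock genes share a source was not tested. Slfn4, an interferon-responsive gene of myeloid cells, stood at 6.90, 8.04 and 8.93 after saline and at 6.93, 6.90 and 8.43 after bleomycin. Cxcl5, a neutrophil-attracting chemokine whose lung level is known to follow the clock, stood at 4.19, 4.28 and 5.02 after saline and at 4.35, 4.75 and 6.52 after bleomycin, again highest on C and F. Each of these Cxcl5 values was dim, below the lowest array median of 7.37. Without detection calls, how far background enters its order is not known. None of the 4 passed limma's test between bleomycin and saline, with adjusted p-values of 0.854, 0.77, 0.612 and 0.452.

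Tspan4, a cycling gene of the related list, had a saline profile like that of Dbp, at 10.51, 10.15 and 8.22 on A, B and C. Its bleomycin lungs spanned less than its saline lungs, at 9.77, 9.19 and 9.30 on D, E and F. Its saline range was 2.29 units and its bleomycin range 0.57, and the difference between groups was -0.21 ± 0.51 (limma adjusted p = 0.852).

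The 3-prime minus 5-prime difference of the Actb control probe sets averaged 1.48 after saline and 1.18 after bleomycin, and that of Gapdh 1.24 and 0.96. The exact two-sided permutation test gave p = 0.3 for each, where 3 arrays against 3 cannot go below 0.1.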
